A study of Sus scrofa with 36 samples.

Results

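Hippocampal arrays that carried much myelin transcript were compared with arrays that carried little. The arrays were chosen by a myelin score. Each of the 36 arrays was scored by the mean log2 value of 5 genes of the myelin sheath, MBP, CNP, CLDN11, PLLP and MAG. The 12 arrays with the highest score were called myelin-rich and the 12 with the lowest myelin-poor, so 24 of 36 arrays entered the comparison and 12 of middle score did not. The classes therefore come from measured values and are not groups of the study. The 5 genes are described without a test, and a call on any other probe set describes how it goes with the score in these arrays.

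The arrays measured total RNA from the hippocampus of male Landrace by Large White piglets at postnatal day 38, with 1 array per sample. Piglets entered at 3 days of age and received a milk replacer in 3 feeding groups of 12: control, with its basal lactoferrin only, medium dose, with lactoferrin (an iron-binding milk glycoprotein) added at 0.6 g/L, and high dose, with 1.2 g/L. All 3 groups therefore drank formula. The feeding study asks about lactoferrin, while the comparison made here cuts across its groups. A set code, 1 of 5 named S1 to S5, is also written on each sample, and nothing in the labels explains it.

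Myelin is the lipid-rich membrane that oligodendrocytes wrap around axons, where it speeds conduction and supports the axon. Its making calls for structural proteins, for cholesterol, for galactolipids with very long acyl chains and for iron, which oligodendrocytes hold in large amounts. In the hippocampus much of it lies in fibre tracts next to the layers of neuron cell bodies, and it is still being laid down in the weeks after birth. In a piece of tissue, fewer cells of a type and less RNA per cell cannot be told apart, and this holds for every value that follows.

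The score ran between 11.26 and 12.08 in myelin-rich arrays (median 11.3, mean 11.44 ± 0.28, SD, n = 12) and between 10.66 and 11.02 in myelin-poor arrays (median 10.8, mean 10.82 ± 0.11, SD, n = 12). It lay between 11.04 and 11.26 in the middle arrays. The upper limit fell in a tie. High dose replicate 7 was the last array inside and control replicate 8 the first outside, both at 11.26, with 4 arrays at that value and column order deciding. At the lower limit, control replicate 12 lay outside at 11.04 and medium dose replicate 10 inside at 11.02.

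**Figure D1:**
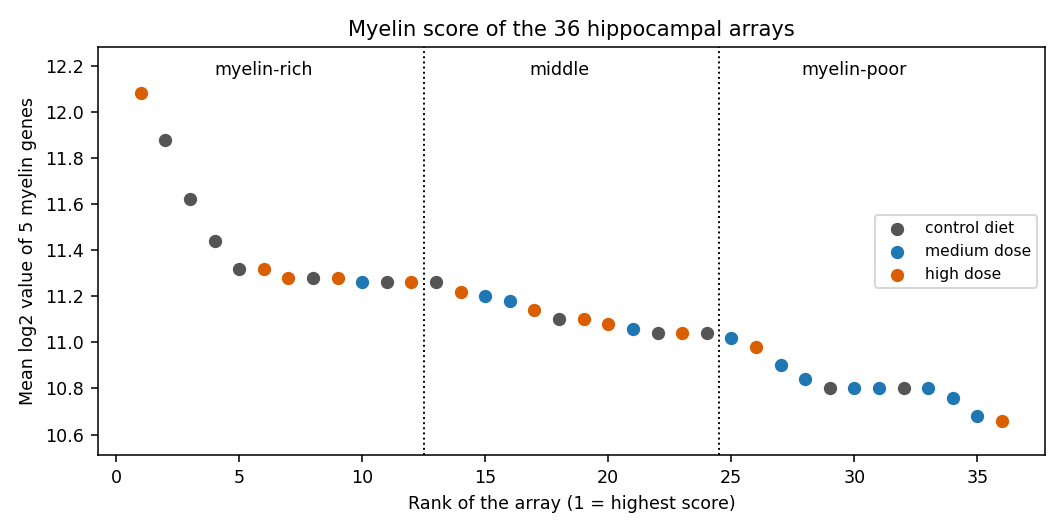
Myelin score (y axis, mean log2 value of 5 genes) of each of 36 arrays by rank (x axis, 1 is the highest), coloured by feeding group, with dotted lines at the class limits. The first 4 arrays, at 12.08, 11.88, 11.62 and 11.44, stand above a slow decline that ends at 10.66, and 8 of the 12 myelin-poor arrays are from the medium dose group.

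A pair of myelin-rich arrays stood apart in their score. High dose replicate 2 had the highest score (12.08) and also the lowest mean correlation with the other arrays (0.980), and control replicate 4 had the next highest score (11.88) and a mean correlation of 0.987. Control replicate 10, also myelin-rich, correlated less than that (0.986) at a score of 11.32, and without it 790 probe sets were called higher and 687 lower. The main counts of calls, and most genes whose range is given by class, are given with and without the 2 arrays of highest score.

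The classes were unevenly spread over the feeding groups. The control group held 6 myelin-rich, 4 middle and 2 myelin-poor arrays. The medium dose group held 1, 3 and 8 arrays of these classes, and the high dose group held 5, 5 and 2. The set codes S1 to S5 held 3, 3, 4, 1 and 1 myelin-rich arrays and 1, 4, 3, 2 and 2 myelin-poor arrays. Among technical measures, the polyadenylated spike-in control Dap was absent from 5 myelin-rich and 3 myelin-poor arrays. The log2 difference between the 3' and 5' actin controls had a median of 1.03 in myelin-rich and 1.19 in myelin-poor arrays, with a highest value of 1.32 in myelin-rich and 1.95 in myelin-poor arrays. The part of these measures in the results was not tested beyond the fits with Dap and with the actin difference, whose counts are given under processing below.

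The score genes themselves differed unequally in size. CNP, an enzyme of the non-compact myelin layers, reached 9.7 to 11.1 in myelin-rich arrays (median 10.05) and 8.7 to 9.5 in myelin-poor arrays (median 9.25), a log2 difference of 1.03. MAG, an adhesion protein of the membrane that faces the axon, differed by 0.725 and PLLP, the membrane protein plasmolipin, by 0.71. CLDN11, which forms the tight junctions between myelin lamellae, differed by 0.39. MBP, which holds the cytoplasmic faces of compact myelin together, differed by 0.24, between means of 14.66 ± 0.10 in myelin-rich and 14.42 ± 0.06 in myelin-poor arrays (SD, n = 12 each).

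Probe sets that carry the same gene name did not all follow the score. A further CNP probe set averaged 9.42 in myelin-rich and 8.46 in myelin-poor arrays. Among the 3 further MBP probe sets, 1 ran between 8.5 and 9.6 in myelin-rich arrays and between 9.3 and 10.2 in myelin-poor arrays, and another between 6.1 and 7.8 in myelin-rich arrays and between 7.4 and 8.3 in myelin-poor arrays. Both thus lay lower in the myelin-rich class, by 0.50 and 0.62, opposite to the probe set in the score. The last averaged 4.93 in both classes, at the level of the filter on dim probe sets. Which MBP transcripts these sets read was not analysed here.

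Over the 17998 other probe sets tested, 1693 (9.41%) were called at a Benjamini-Hochberg adjusted p under 0.05 in limma. Of these, 835 (4.64%) were higher and 858 (4.77%) lower in myelin-rich arrays. With 1 probe set per gene, 310 of 6029 genes (5.14%) were higher and 247 (4.1%) lower, and the median difference over these genes was 0.00 on the log2 scale. Of all 17998 probe sets, 50.1% had a difference above 0. Counts of calls and of signs in the lists below are to be read beside these shares. Differences were modest, with a median of 0.33 among probe sets called higher and -0.30 among those called lower. A log2 difference of at least 0.5 was seen in 173 called higher and 105 called lower.

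Feeding group and class overlap. Fewer probe sets were called in the fits that follow, and the cause was not tested. With feeding group and set code as blocks, 317 probe sets (1.76%) were higher and 385 (2.14%) lower, and without the 2 arrays that stood apart 463 (2.57%) were higher and 324 (1.8%) lower. With the control and high dose arrays alone, which leaves 11 myelin-rich and 4 myelin-poor arrays, limma called 1 probe set higher and 1 lower, with 1180 higher and 1208 lower at an unadjusted p under 0.05. No probe set called in the 24 arrays was called in the opposite direction in any of these fits.

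Of the 22 lists, myelin genes outside the score had the highest median difference. Of 20 tested compact myelin and myelin membrane genes, 16 were higher in myelin-rich arrays and none lower, with a median of 0.62. Their mean per array ran between 10.09 and 11.21 in myelin-rich arrays (mean 10.42 ± 0.32) and between 9.74 and 10.18 in myelin-poor arrays (mean 9.92 ± 0.13, SD, n = 12 each), so that the classes met at their edges. The middle arrays averaged 10.06 ± 0.12. With both blocks 7 of the 20 were called, and without the 2 arrays that stood apart 15 were.

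**Figure D2:**
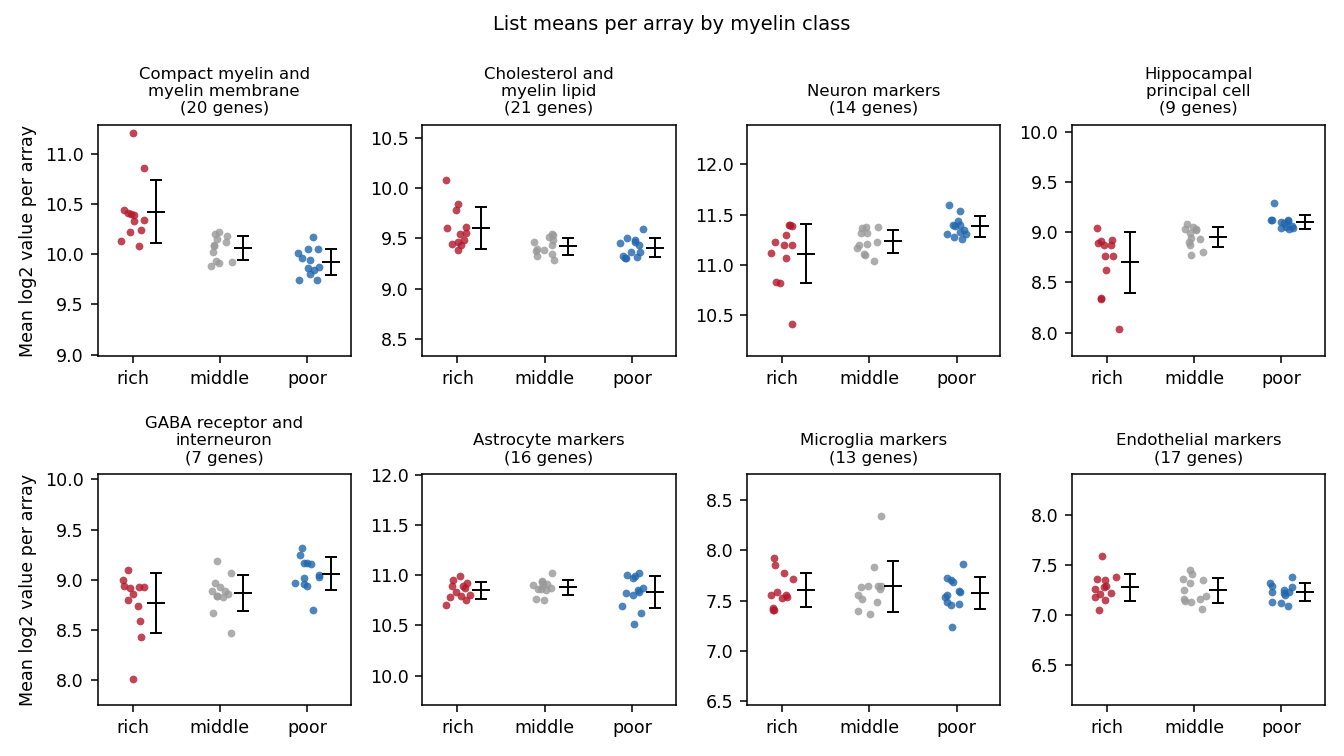
Mean log2 value per array (y axis) of 8 gene lists in myelin-rich, middle and myelin-poor arrays (x axis, 12 points each), with bars for mean ± SD. The compact myelin mean is 10.42 in myelin-rich and 9.92 in myelin-poor arrays and the neuron mean 11.11 and 11.38, while the astrocyte mean is 10.85 and 10.83.

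OPALIN, a membrane glycoprotein of oligodendrocytes, had log2 values between 11.2 and 12.4 in myelin-rich arrays (median 11.55) and between 10.7 and 11.3 in myelin-poor arrays (median 10.95). It was higher by 0.76 ± 0.11 (SE, limma adjusted p = 0.000781), and all 12 myelin-rich arrays lay above the median of the myelin-poor class. Without the 2 arrays that stood apart the difference of OPALIN was 0.63 (limma adjusted p = 0.000307). ENPP2, or autotaxin, which makes the signalling lipid lysophosphatidic acid, lay between 11.2 and 12.6 in myelin-rich arrays (median 11.6) and between 10.5 and 11.2 in myelin-poor arrays (median 10.9). The classes touched at 11.2, and the difference was 0.77 ± 0.12 (SE, limma adjusted p = 0.000853), or 0.61 without the 2 arrays. ENPP2 is also made by choroid plexus. Of the 8 tested choroid plexus and ependymal genes, ENPP2 among them, 6 lay above 0 and 2 were called higher, ENPP2 and the cilium gene CFAP126 (0.42). Their mean was 7.43 ± 0.15 in myelin-rich and 7.30 ± 0.16 in myelin-poor arrays (SD, n = 12 each). The part of these cells in the ENPP2 difference was not tested. The choroid plexus gene TTR, the thyroxine carrier transthyretin, averaged 6.21 ± 1.05 in myelin-rich and 6.51 ± 0.71 in myelin-poor arrays (SD, n = 12 each; limma adjusted p = 0.612).

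ERMN, which encodes the cytoskeletal protein ermin of oligodendrocytes, spread more widely, between 7.7 and 10.2 in myelin-rich arrays (median 8.7) and between 7.6 and 8.5 in myelin-poor arrays (median 7.95). It was higher by 0.78 ± 0.19 (SE, limma adjusted p = 0.0123), but not past the threshold with both blocks (adjusted p = 0.124), and by 0.545 without the 2 arrays. MAL, a proteolipid of myelin membrane rafts, was higher by 0.66 ± 0.16 (limma adjusted p = 0.0105, 0.0545 with both blocks). The gap junction gene GJB1, connexin 32, was higher by 0.59 ± 0.13 (limma adjusted p = 0.0056, 0.0708 with both blocks). FA2H, which hydroxylates the fatty acids of myelin galactolipids, was higher by 0.68 ± 0.15 (limma adjusted p = 0.00769) and stayed past the threshold with both blocks (0.0492). JAM3, a junction protein, and SEPT4, a septin of the sheath, were higher by 0.65 and 0.68 (limma adjusted p = 0.00137 each).

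The small heat shock protein gene CRYAB was higher by 0.72 ± 0.13 (limma adjusted p = 0.00253). The lipid carrier gene APOD was higher by 0.67, the tetraspanin genes CD9 and CD81 by 0.58 and 0.21, and the actin-severing gelsolin gene GSN by 0.475. A dimmer GSN probe set differed by 0.23 and was not called. Not called were TSPAN2 (-0.31), a further tetraspanin, GPM6B (-0.06), CLDND1 (0.33) and MOBP (0.17). Of 2 dimmer CLDND1 probe sets, which differed by 0.275 and 0.52, 1 was called higher. MOBP encodes an abundant protein of central myelin, and its brightest probe set averaged 13.48 in myelin-rich and 13.31 in myelin-poor arrays. Its 4 dimmer probe sets differed by 0.32 to 0.85, and 3 of them were called higher.

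Genes that direct the lineage were higher by smaller amounts. OLIG1, a transcription factor of the lineage, lay between 10.9 and 11.6 in myelin-rich arrays (median 11.2) and between 10.6 and 11.1 in myelin-poor arrays (median 10.85), and was higher by 0.375 ± 0.07 (SE, limma adjusted p = 0.00285), or by 0.30 without the 2 arrays that stood apart. OLIG2, its close relative, was higher by 0.40 ± 0.08 (limma adjusted p = 0.00317), and the class 4 semaphorin SEMA4D by 0.38 ± 0.09 (limma adjusted p = 0.0113). SOX10, which drives myelin gene transcription, averaged 6.10 in myelin-rich and 5.98 in myelin-poor arrays (limma adjusted p = 0.37). Called were thus 3 of 4 regulators, and none of them with both blocks. Among precursor genes, VCAN, the proteoglycan versican, was higher by 0.42 ± 0.10 (limma adjusted p = 0.0102), while BCAS1, a marker of newly formed oligodendrocytes, differed by 0.25 ± 0.20 (limma adjusted p = 0.449). A dimmer probe set of OLIG2 differed by 0.09 and 1 of VCAN by 0.225, and neither was called.

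Lipid synthesis followed the score only in part. Of 21 genes for cholesterol and myelin lipids, 7 were higher and none lower, with a median difference of 0.14. CERS2, which makes ceramides with very long acyl chains, lay between 10.2 and 11.6 in myelin-rich arrays (median 10.45) and between 9.5 and 10.2 in myelin-poor arrays (median 9.85). The classes met at 10.2, the difference was 0.73 ± 0.13 (SE, limma adjusted p = 0.00137) and 0.56 without the 2 arrays, and 3 further probe sets of the gene were called higher by 0.65 to 0.82. ELOVL1, which elongates very long-chain fatty acids, was higher by 0.65 ± 0.11 (limma adjusted p = 0.00137). INSIG1, which holds back sterol synthesis, was higher by 0.53 ± 0.13 (limma adjusted p = 0.0102, 0.0558 with both blocks), and NSDHL, an enzyme late in the cholesterol path, by 0.40 ± 0.11 (limma adjusted p = 0.0256, 0.114 with both blocks). ELOVL6, MSMO1 and FASN were higher by 0.30, 0.28 and 0.19. No dimmer probe set of NSDHL, ELOVL6, MSMO1 or FASN was called. These differed by 0.075 for NSDHL, 0.10 to 0.20 for ELOVL6, 0.10 for MSMO1 and -0.03 to 0.05 for FASN. The other 14, among them HMGCS1 (0.04), SREBF2 (0.12), SCD (0.14) and SQLE (0.19), were not called. With both blocks 2 genes of this list were called, and without the 2 arrays that stood apart 4.

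In the iron handling list of 10 genes, 2 were higher and 1, a metallothionein gene, was lower. Over all 6029 genes 5.14% were higher and 4.1% lower. TF, the iron carrier transferrin, which oligodendrocytes make in brain, lay between 12.1 and 13.7 in myelin-rich arrays (median 12.8) and between 11.7 and 12.5 in myelin-poor arrays (median 12.2). It was higher by 0.65 ± 0.14 (SE, limma adjusted p = 0.00459, 0.0408 with both blocks) and by 0.51 without the 2 arrays, and the classes overlapped. FTL, the ferritin light chain, was higher by 0.225 ± 0.06 (limma adjusted p = 0.0291) and the metallothionein gene MT3 lower by a difference of -0.14 ± 0.04 (limma adjusted p = 0.0419). Neither call held without the 2 arrays that stood apart (adjusted p = 0.0818 and 0.092). A dimmer FTL probe set differed by -0.04 and was not called. The transferrin receptor gene TFRC differed by -0.03 and the ferritin heavy chain gene FTH1 by 0.02, and neither was called.

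**Figure D3:**
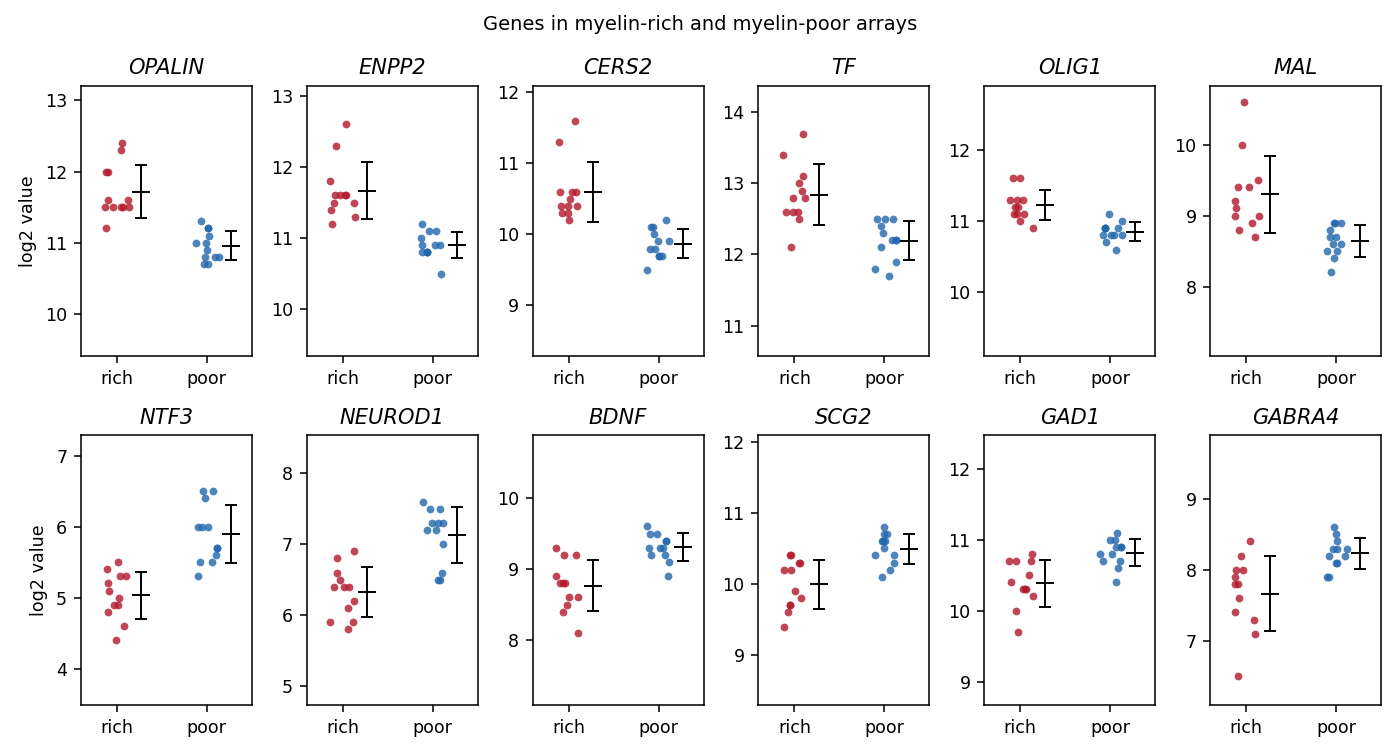
Log2 values (y axis, spanning the same range in each panel) of 12 genes in 12 myelin-rich and 12 myelin-poor arrays, each point 1 array, with bars for mean ± SD. Genes in the upper row are higher in myelin-rich arrays, OPALIN by 0.76, and those in the lower row are lower, NTF3 by a log2 difference of -0.86.

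The largest differences upwards went beyond known myelin genes. The 12 largest among named genes were those of TMEM26 (0.91), ERMN, ENPP2, ATP6V1C2 (0.77), OPALIN, TMEM144 (0.75), OCA2 (0.74), CERS2, CRYAB, EFHD1 (0.70), GAB1 (0.68) and ADSSL1 (0.68). TMEM26 lay between 9.4 and 11 in myelin-rich arrays (median 10.05) and between 8.6 and 9.8 in myelin-poor arrays (median 9.25), with an SE of 0.16 (limma adjusted p = 0.00176), and its difference was 0.79 without the 2 arrays that stood apart. ATP6V1C2 encodes a subunit of the vacuolar proton pump, OCA2 a transporter of pigment organelles, GAB1 an adaptor of receptor tyrosine kinases and EFHD1 a calcium-binding protein of mitochondria. ATP6V1C2 and OCA2 lost their call with both blocks (adjusted p = 0.154 and 0.053), as ERMN did.

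Some genes of hippocampal principal neurons were lower in myelin-rich arrays. Of 9 tested genes of hippocampal principal cells, 3 were lower and none higher, all 9 differences lay below 0, and the median was -0.31. NTF3, the growth factor neurotrophin-3, lay between 4.4 and 5.5 in myelin-rich arrays (median 5.05) and between 5.3 and 6.5 in myelin-poor arrays (median 5.85). It was lower by a log2 difference of -0.86 ± 0.14 (SE, limma adjusted p = 0.00103), at levels near the filter on dim probe sets. NEUROD1, a transcription factor of granule neurons, lay between 5.8 and 6.9 in myelin-rich arrays (median 6.4) and between 6.5 and 7.6 in myelin-poor arrays (median 7.25). Its difference was -0.80 ± 0.14 (SE, limma adjusted p = 0.00158), and both genes were also called with both blocks and without the 2 arrays that stood apart, where NTF3 differed by -0.75 and NEUROD1 by -0.765. DKK3, a secreted glycoprotein of the dickkopf family, differed by -0.34 ± 0.09 (limma adjusted p = 0.0178, 0.0553 without the 2 arrays). The mean of the 9 genes lay between 8.03 and 9.04 in myelin-rich and between 9.03 and 9.29 in myelin-poor arrays.

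General neuron markers were lower in part. Of 14 tested, 4 were lower, 13 had a difference below 0, and the median was -0.26. Their mean per array was 11.11 ± 0.29 in myelin-rich arrays, 11.23 ± 0.12 in middle arrays and 11.38 ± 0.10 in myelin-poor arrays (SD, n = 12 each), with overlap between the classes. Within the middle arrays themselves, 10 of the 14 rose with the score and 4 fell. SCG2, or secretogranin II, a protein of dense-core vesicles, lay between 9.4 and 10.4 in myelin-rich arrays (median 10.05) and between 10.1 and 10.8 in myelin-poor arrays (median 10.55). It was lower by a difference of -0.50 ± 0.11 (SE, limma adjusted p = 0.00673, 0.0311 with both blocks), or -0.41 without the 2 arrays. CHGB, a granin of the same vesicles, UCHL1, a neuronal deubiquitinase, and SNAP25, a protein of vesicle fusion, differed by -0.43, -0.27 and -0.23 (limma adjusted p = 0.0151, 0.043 and 0.0445). Without the 2 arrays that stood apart SCG2 alone of these 4 was called, and with both blocks CHGB and UCHL1 were not (adjusted p = 0.0838 and 0.0916). When each of the 24 arrays was left out in turn, SNAP25 was called in 9 of the 24 fits and UCHL1 in 11.

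On the brightest probe set of each gene, synaptic and axonal lists held 2 called genes, BAIAP2 and SNAP25, both lower. Over all 6029 genes 4.1% were lower and 5.14% higher. The presynaptic gene NSF and the postsynaptic gene PPP3CA were not called, but each had 2 dimmer probe sets, of which 1 was called lower. All 7 presynaptic genes had a difference below 0, between -0.39 and -0.15, and SNAP25 alone passed on its brightest probe set. Of 6 postsynaptic genes 1 passed, BAIAP2, a scaffold of dendritic spines, with -0.475 ± 0.15 (limma adjusted p = 0.0461). That call was lost without the 2 arrays that stood apart (adjusted p = 0.105). None of 9 genes for neurofilaments and axonal cytoskeleton was called, STMN2, a regulator of growing axons, coming nearest with -0.31 (limma adjusted p = 0.0525), nor were the 3 genes of node and paranode, of which ANK3, the scaffold ankyrin-G, differed by 0.27 (limma adjusted p = 0.0939).

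Genes of GABA receptors and interneurons were lower in part. Of 7 tested, 3 were lower and all 7 differences lay below 0, with a median of -0.24. GAD1, which makes GABA, lay between 9.7 and 10.8 in myelin-rich arrays (median 10.35) and between 10.4 and 11.1 in myelin-poor arrays (median 10.85). It was lower by a difference of -0.43 ± 0.10 (SE, limma adjusted p = 0.0108, 0.0307 with both blocks), or -0.36 without the 2 arrays, and GAD2, the other GABA-making enzyme, by -0.32 ± 0.09 (limma adjusted p = 0.0317, 0.0982 without the 2 arrays that stood apart). GABRA4, a subunit of extrasynaptic GABA receptors, was lower by -0.57 ± 0.15 (limma adjusted p = 0.0204). The interneuron peptide genes SST (-0.09), NPY (-0.17) and CCK (-0.20) were not called.

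BDNF, the activity-regulated neurotrophin, was the 1 gene of 11 in the immediate early list to be called, beside 4.1% lower over all 6029 genes. It lay between 8.1 and 9.3 in myelin-rich arrays (median 8.8) and between 8.9 and 9.6 in myelin-poor arrays (median 9.3). The difference was -0.54 ± 0.11 (SE, limma adjusted p = 0.00387), with 11 of 12 myelin-rich arrays below the median of the myelin-poor class, and with both blocks -0.45 (adjusted p = 0.0646). Without the 2 arrays that stood apart it was also -0.45 (adjusted p = 0.00884). FOS (-0.14), EGR1 (-0.18) and JUN (0.20), which respond to neuronal activity, were not called.

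**Figure D4:**
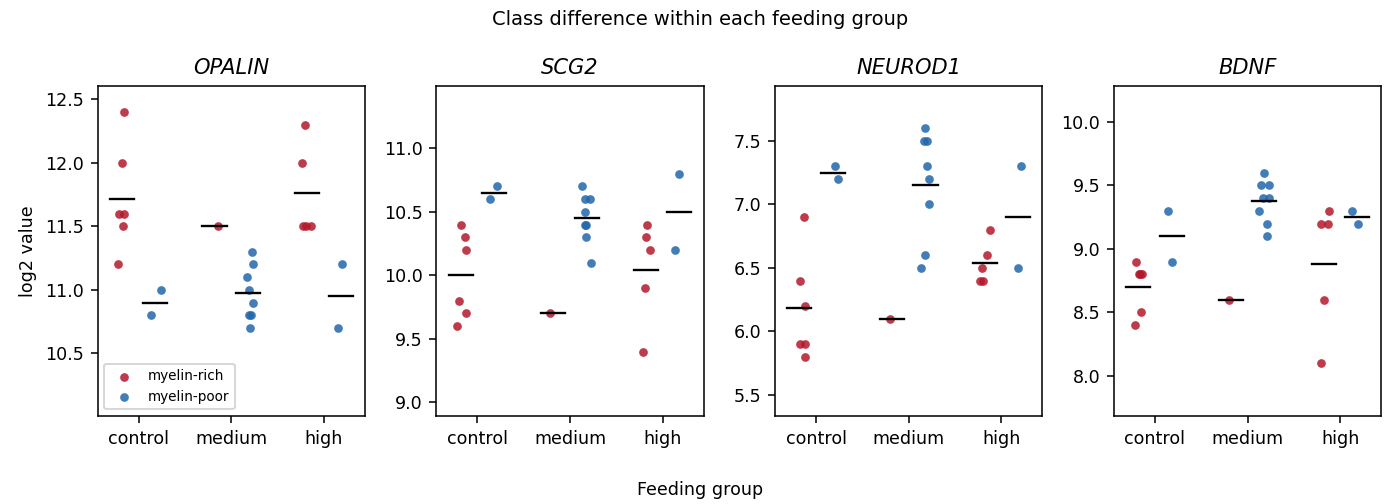
Log2 values (y axis) of OPALIN, SCG2, NEUROD1 and BDNF in myelin-rich and myelin-poor arrays within each feeding group (x axis), each point 1 array and each line a mean. The control group holds 6 myelin-rich and 2 myelin-poor arrays, medium dose 1 and 8, and high dose 5 and 2.

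Within each feeding group the class means kept their order for these 4 genes, but not for every named gene. In the medium dose group ERMN, ATP6V1C2 and MOBP were 7.7, 6.8 and 13.0 in the 1 myelin-rich array. Their means in the myelin-poor medium dose arrays were higher, at 7.94, 6.9 and 13.375. OPALIN averaged 11.72 in myelin-rich and 10.9 in myelin-poor control arrays, 11.5 and 10.97 in the same classes of the medium dose group, and 11.76 and 10.95 in those of the high dose group. BDNF averaged 8.7 in myelin-rich and 9.1 in myelin-poor control arrays, 8.6 and 9.38 at the medium dose, and 8.88 and 9.25 at the high dose. The compact myelin mean was higher in myelin-rich arrays by 0.51 in control, 0.21 in medium dose and 0.55 in high dose arrays, and by 0.33 to 0.92 within the 5 set codes. The neuron mean differed by -0.31, -0.51 and -0.36 in the 3 feeding groups. Within set codes it differed by -0.69 in S1 (3 myelin-rich, 1 myelin-poor) to 0.003 in S3 (4 myelin-rich, 3 myelin-poor). In S3 the GABA and interneuron mean differed by 0.05 and the principal cell mean by -0.24. These strata hold as few as 1 array of a class and were not tested singly.

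The 12 largest differences downwards among named genes also held genes outside the neuron lists. They were those of NTF3, QPCT (-0.82), NEUROD1, NANOS1 (-0.72), TIAM2 (-0.69), PPL (-0.67), PKIB (-0.64), COL15A1 (-0.62), RGS2 (-0.61), DIRAS3 (-0.59), SKAP2 (-0.58) and GABRA4. NANOS1, an RNA-binding repressor of translation, lay between 7.1 and 8.0 in myelin-rich arrays (median 7.75) and between 7.9 and 8.8 in myelin-poor arrays (median 8.45), with an SE of 0.11 (limma adjusted p = 0.000938), and its difference was -0.67 without the 2 arrays. QPCT encodes glutaminyl cyclase, PKIB an inhibitor of protein kinase A, TIAM2 an activator of Rac and RGS2 a brake on G-protein signalling. With both blocks TIAM2, PPL, COL15A1, RGS2, SKAP2 and GABRA4 were no longer called. NANOS1 and RGS2 each had 1 dimmer tested probe set, which was not lower in myelin-rich arrays and was not called.

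**Figure D5:**
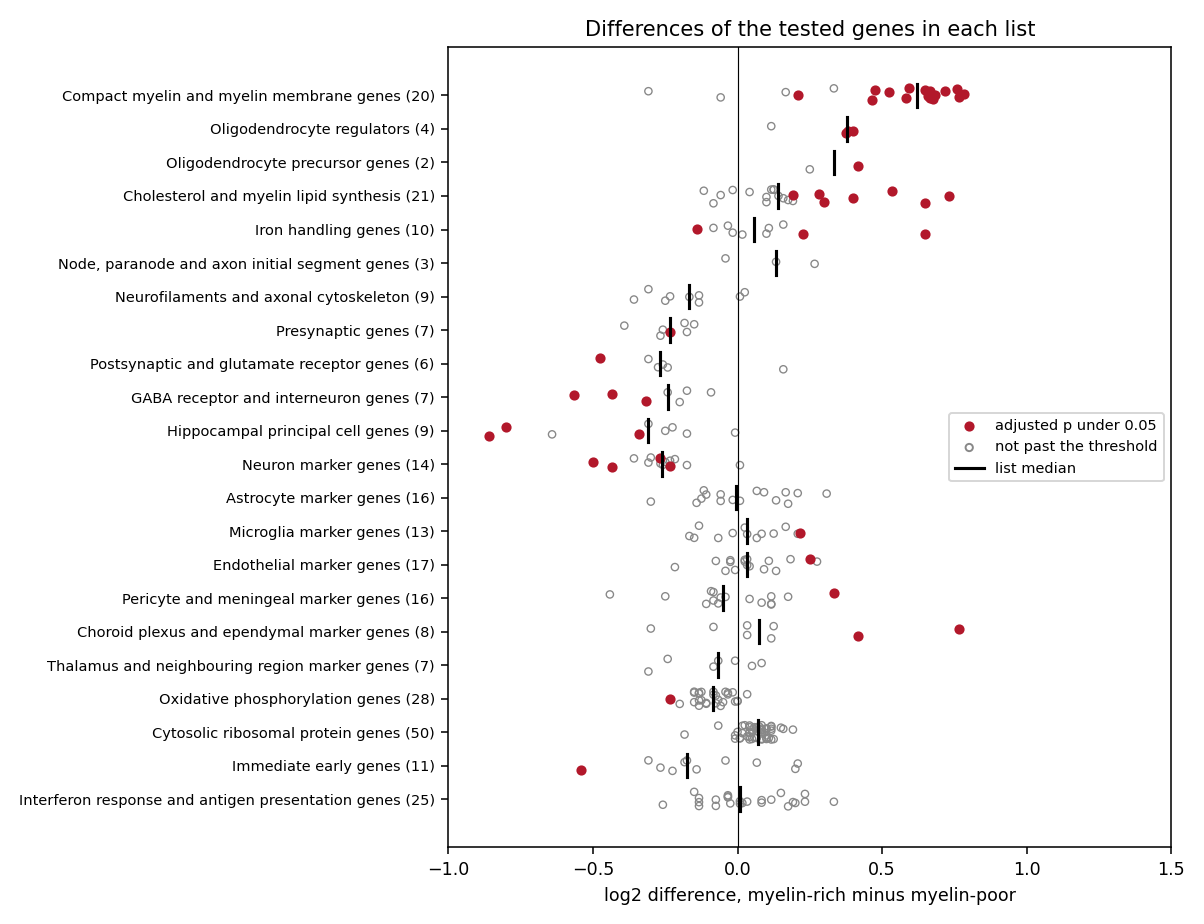
Log2 differences, myelin-rich minus myelin-poor (x axis), of the tested genes of 22 lists (y axis, number of genes in parentheses), filled where the limma adjusted p was under 0.05, with a bar at each list median. The compact myelin median lies at 0.62 and the principal cell median at -0.31, and 16 astrocyte genes spread around 0 with none called.

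Markers of other cell types are to be read beside the 5.14% of all genes called higher and 4.1% called lower. None of 16 astrocyte genes was called, with 8 above and 8 below 0, and GFAP, the astrocyte filament, averaged 12.85 ± 0.35 in myelin-rich and 12.64 ± 0.11 in myelin-poor arrays (SD, n = 12 each; limma adjusted p = 0.187). Of 13 microglia genes 1 passed, the phagocyte oxidase gene listed as GP91-PHOX, with 0.22 (limma adjusted p = 0.0497, 0.156 without the 2 arrays that stood apart). Of 17 endothelial genes 1 passed, the receptor TIE1, with 0.25 ± 0.06 (limma adjusted p = 0.0092). Of 16 pericyte and meningeal genes 1 passed, PTGDS, with 0.33 ± 0.08 (limma adjusted p = 0.0123, 0.079 with both blocks). PTGDS encodes an enzyme that makes prostaglandin D2, and oligodendrocytes express it too. CFAP126, of the choroid plexus and ependymal list, had 0.42 ± 0.12 (limma adjusted p = 0.0334, 0.103 without the 2 arrays that stood apart). None of 7 markers of thalamus and neighbouring regions was called, and their mean lay between 6.09 and 6.63 in myelin-rich and between 6.23 and 6.59 in myelin-poor arrays, near the array medians of 6.6 to 6.7.

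Small differences, mostly of 1 sign and nearly all not past the threshold, were found for genes of oxidative phosphorylation and of the ribosome. Of 28 oxidative phosphorylation genes, 25 had a difference below 0, with a median of -0.08. SDHD, a membrane anchor of succinate dehydrogenase, alone passed (-0.23 ± 0.07, limma adjusted p = 0.0317, 0.0918 without the 2 arrays that stood apart), beside 4.1% lower over all 6029 genes. Of 50 cytosolic ribosomal protein genes, 45 lay above 0 with a median of 0.07 and none passed. Of 25 interferon and antigen presentation genes none passed, with 14 above and 11 below 0 and a median of 0.01. That median was -0.135 with both blocks, where 1 gene was called lower, and lay between -0.04 and 0.19 when each array was left out in turn.

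Full separation of the classes was rare. In 9 probe sets (0.05%) no myelin-rich array overlapped a myelin-poor one, 7 of them higher and 2 lower. The named ones, given because of this separation, were CERS2 on a probe set other than the one above (0.73), ZDHHC9 (0.67), C14H1orf198 (0.475), SYPL1 (0.43), PACSIN1 (-0.38) and RPS27 (-0.45). PACSIN1, which shapes membranes at synapses, lay between 9.3 and 10.4 in myelin-rich arrays and between 10.5 and 10.7 in myelin-poor arrays. ZDHHC9, which palmitoylates proteins, lay between 10.5 and 11.6 in myelin-rich arrays and between 9.9 and 10.4 in myelin-poor arrays.

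The 12 middle arrays, which the contrast does not use, cover a score range of only 11.04 to 11.26. Of the 1693 called probe sets, 54.4% had a slope on the score of the same sign within them, and 48.8% of all tested probe sets did. For probe sets called higher the share was 60.2%, and for those called lower 48.7%. By list, 16 of 20 compact myelin genes had a slope above 0 there. So did 10 of 14 neuron markers, 6 of 7 presynaptic and 7 of 9 axonal cytoskeleton genes, opposite to their class differences. Slopes lay below 0 for 5 of 9 principal cell, 4 of 7 GABA and 5 of 6 postsynaptic genes.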

How the data were processed

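The deposited values are log2 intensities per probe set, which the authors made by RMA. The submitters' processing notes name Affymetrix Expression Console 1.1 for this. Deposited values are rounded to 1 decimal. No raw intensities were used. Names came from the array annotation: 10069 of 23999 probe sets name 1 gene, 198 several and 13732 none, and 9961 names were matched to RefSeq by gene ID. Of 607 distinct list symbols, 306 were on the array.

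The score used the probe set with the highest mean for each gene. All 9 probe sets naming a score gene, 124 array controls and dim probe sets (mean over 36 arrays under log2 4.92, the 25th percentile) were left out of the test, leaving 17998. Myelin-rich minus myelin-poor was fitted with limma 3.58.1 in R 4.3.3 (lmFit and eBayes, two-sided, Benjamini-Hochberg, threshold 0.05), with no block. Genes in lists are represented by their brightest probe set. The p-values set the class difference against the spread between samples within the classes, and precision is limited by how many arrays there are. A score from these same arrays cut the classes, so the p-values do not compare independently formed groups.

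The classes, the 22 lists and the named genes were chosen with earlier results of these data known. Named are the 12 largest called differences per direction, up to 4 called members per direction of each list by p (up to 3 of smallest p where fewer than 3 were called), a fixed set of oligodendrocyte, neuron and glial genes, and genes added for contrast after their values were seen. MOG, UGT8, ASPA, MYRF, PDGFRA, CSPG4, AQP4, CAMK2A and PROX1, among others of that set, were not analysed here. On simulated data with 200 of 17998 probe sets changed, the fit recovered 63.6% of changes of 1.25-fold, 95.2% at 1.5-fold and 98.8% at 2-fold. False calls reached at most 14 per run. The simulated probe sets varied independently and the classes were not cut by a score, so these rates do not carry over to the comparison made here. Figures were drawn with matplotlib 3.10.9. Other blocks, filters, normalizations, scores and class sizes, and fits leaving out arrays, were tried. The fit of control and high dose arrays alone, and the lists and named genes without arrays, were added after seeing the data.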

Additional observations from a re-analysis of the deposited data

Results flagged for a closer look

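In 15 groups of 4 to 10 arrays (a feeding group within a class, for the score and 4 list means), 5 values lay far from the rest of their group by Dixon's gap test. Chance flags about 1 in 20 groups of arrays that were not chosen by the value tested. That rate does not hold here, since the score cut the classes, and list means that go with the score are not independent of it. The flags are therefore given as a description. High dose replicate 2 gave 4 of them among the 5 high dose myelin-rich arrays. Its score was 12.08, against 11.32 for the next array, and its compact myelin mean was 11.21, against 10.4. Its mean over cholesterol and myelin lipid genes was 10.09, against 9.62, and its neuron marker mean was 10.41, below the nearest value of 11.2. The fifth was the principal cell mean of medium dose replicate 2, which at 9.29 lay above the nearest value of 9.12 among the 8 medium dose myelin-poor arrays.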

How the results depend on the processing

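In place of 835 higher and 858 lower probe sets, the fits gave 432 and 537 with feeding group as a block, 317 and 385 with set code added, 188 and 114 in arrays with the Dap spike-in, 324 and 270 with 1 probe set per gene (6029 tested), 476 and 324 with 18 against 18 arrays, 2170 and 2449 as a slope over 36 arrays, 519 and 288 with all probe sets of the score genes in the score, 549 and 464 without MAG, 463 and 324 without both arrays that stood apart, and 1 and 1 in control and high dose arrays. Array weights gave 520 lower and 9 against 9 arrays 372 lower. With presence of the Dap spike-in as a block, all 24 arrays gave 659 higher and 577 lower. With the actin difference as a covariate the counts were 837 and 833, of which 681 and 653 were also main calls. Leaving out 1 array gave 586 to 1076 higher and 518 to 1300 lower, with 1300 lower without control replicate 2, 518 without control replicate 4 and 565 when high dose replicate 2 was left out. With the replicate number as a block the counts were 173 and 75, and with set code added 39 and 19. Same-numbered arrays did not deviate together (mean correlation -0.00485 over 36 pairs), so the numbers do not pair them. Of 53 named genes called, 28 were called with feeding group and set code as blocks, 42 without both arrays and 44 in all 24 fits leaving out 1 array, and none changed sign. The share of called probe sets with the same sign in the middle arrays was 54.4%, with 60.2% for those called higher and 48.7% for those called lower. With set code as a block these shares were 50.4%, 59.9% and 41.1%. The immediate early median of -0.175 reversed to 0.0117 without both arrays, and the interferon median of 0.01 was -0.135 with feeding group and set code as blocks. The cause was not tested.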

Other observations

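The probe set of RPS27 that separated the classes lay at 7.72 ± 0.20 in myelin-rich and 8.17 ± 0.11 in myelin-poor arrays (SD, n = 12 each), lower by a log2 difference of -0.45 ± 0.07 (SE, limma adjusted p = 0.000781), while the brightest probe sets of 45 of 50 ribosomal protein genes differed upwards, by up to 0.19. A probe set with no gene name had the smallest adjusted p of the comparison (limma, 0.000191), with 13.5 to 14.1 in myelin-rich arrays and 13.0 to 13.3 in myelin-poor arrays.

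LUM, a collagen-binding proteoglycan of the meninges, averaged 6.17 ± 0.65 in myelin-rich and 6.61 ± 0.56 in myelin-poor arrays (SD, n = 12 each) and was not called (limma adjusted p = 0.222), but with feeding group and set code as blocks its difference was -1.03 (adjusted p = 0.0246). NR4A2, an activity-regulated nuclear receptor, likewise differed by -0.31 (limma adjusted p = 0.0891) and by -0.55 with both blocks (adjusted p = 0.0405).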
